A study of Homo sapiens with 42 samples.

Results

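The 10 ATP-binding cassette (ABC) transporters described here are ABCB1, ABCB4, ABCA3, ABCA2, ABCC1, ABCC4, ABCC5, ABCG2, ABCG1 and ABCA1, chosen by name from 57820 genes in each table, and all 10 were listed for all 5 lines. Total RNA came from 42 samples of 5 human B-ALL (B-cell acute lymphoblastic leukaemia) lines with more or less NSD2, a histone methyltransferase that acts on lysine 36 of H3. Reh cells (2 replicates per arm) and 697 cells (3 per arm) carried an empty vector (EV), added wild-type NSD2 (WT) or added NSD2 with the E1099K substitution named in the series title (EK). SEM cells, RS411 cells (the RS4;11 line) and RCH cells (the RCH-ACV line) held a control hairpin without a target (NT), the short hairpin sh2 or the hairpin sh5, with 3 replicates per arm. The series text names sh2 as the NSD2 knockdown, whereas sh5 appears in the sample titles alone. All lines were grown in RPMI1640 with serum, and no drug is named for any sample. The labels do not say whether replicates were grown separately, so each p-value reflects only how far these samples spread, which may be technical. Both hairpin arms of a line share its NT libraries, and both NSD2 arms share its EV libraries, so their changes are given side by side and are not independent.

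ABC transporters use ATP to move drugs, lipids and conjugated metabolites across membranes. In leukaemia cells the exporters of the B, C and G2 groups are known for lowering the amount of vinca alkaloids, anthracyclines, antifolates and thiopurine nucleotides inside the cell, and drug resistance of NSD2-mutant leukaemia is the subject of the series title. ABCA1 and ABCG1 hand cholesterol and phospholipids to lipoproteins under the control of the LXR nuclear receptors, and ABCA2 and ABCA3 load lipids into lysosome-related compartments. In GENCODE v29 (GRCh38) ABCB1 and ABCB4 are neighbours on chromosome 7, ABCA1 and ABCA2 lie on chromosome 9, and ABCA3 and ABCC1 on chromosome 16.

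NSD2 (WHSC1 in the tables) moved as labelled in every line. Its level in CPM, reads scaled to a common library total, was 571 to 586 in Reh EV against 1546 to 1778 with added NSD2, and 163 to 225 in 697 EV against 1526 to 2306. In the hairpin lines NSD2 ran from 297 to 366 CPM in NT libraries and from 133 to 261 CPM in sh2 and sh5 libraries, and of these lines the fall passed the test in SEM alone (adjusted p = 8.92e-09 with sh2 and 1.87e-09 with sh5, against 0.118 and 0.164 in RS411 and 0.0952 and 0.508 in RCH, edgeR). In RS411 sh2 replicate 3 stood apart, with NSD2 at 248 CPM against 153 and 159 in the others of its arm, and in RCH the sh2 libraries were spread over 138.6, 211 and 261 CPM. Reads assigned to genes ran from 21876505 in RCH to 67651596 in RS411 per library. Of 10 B-lymphoblast markers, 9 reached 1 CPM in Reh (VPREB1 at 0) and in SEM (MME below 1 CPM), and all 10 did in the other lines. In bulk samples such as these, fewer cells of a type and less RNA per cell cannot be told apart.

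In the control arms, transcripts of ABCA2, ABCC1, ABCC4 and ABCC5 were abundant in every line, whereas ABCB1, ABCG2, ABCG1, ABCA3 and ABCA1 differed strongly between lines, and 40 of the 50 pairs of a transporter and a line had a mean of at least 1 CPM. Each line has a table of its own, so these levels are a description. ABCB1 was near the detection limit except in SEM, and ABCB4 was listed at 0 reads in Reh. Levels between genes were compared per kilobase of coding sequence. That length leaves out untranslated bases. On that scale the highest mean was that of ABCC5 in Reh (14.6 ± 0.65 CPM per kilobase, SD), ABCC4 in 697 (22.5 ± 1.6) and RS411 (12.6 ± 2.4), ABCG1 in RCH (23.5 ± 4.98) and ABCA2 in SEM (16.1 ± 1.9). The next mean was that of ABCC1 in Reh (10.5 ± 1.3), 697 (19.2 ± 3.5), RS411 (10.3 ± 1.2) and SEM (14.03 ± 1.8), and ABCA1 in RCH (20.04 ± 2.9). The ranges of mean ± SD of first and next overlapped in 697, RS411, RCH and SEM, so the first place there is not settled.

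**Figure D1:**
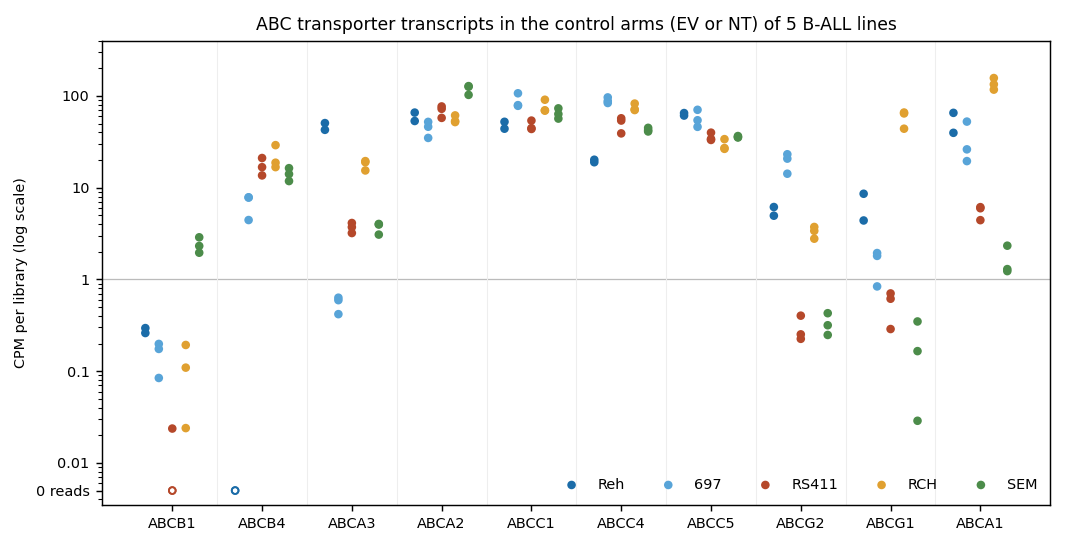
Each point is 1 control library (EV in Reh and 697, NT in RS411, RCH and SEM), with its CPM on a log axis, an open circle at 0 reads and a line at 1 CPM. ABCA2, ABCC1, ABCC4 and ABCC5 lie above 10 CPM in all 14 libraries, whereas ABCG1 and ABCA1 are highest in RCH and lowest in SEM.

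Across the 10 comparisons with a line's own control, transporters were called in SEM and, for a single gene, in RS411. This holds for filtered fits without the replicate number as a block. With that block, calls also arose in Reh and RCH and differed in RS411 and, with sh2, in SEM, as given in the last section. Calls are at an adjusted p under 0.05 after Benjamini-Hochberg adjustment over all genes tested. In Reh, 8 transporters could be tested and 0 were called in WT versus EV (0.219% of all 15972 genes were called) and 0 in EK versus EV (0.213% of all genes), each with edgeR and with 0 at an unadjusted p under 0.05. In 697, 9 were tested with limma and 0 were called in WT versus EV (0.19% of all 16310 genes) and 0 in EK versus EV (0.172% of all genes), and at an unadjusted p under 0.05 there were 0 and 1, and edgeR on the reads recovered from the 697 values also called 0. The mutant was not told apart from the wild type for any transporter: EK versus WT gave 0 calls in Reh (0% of all genes called) and 0 in 697 (0% of all genes called).

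In RS411, 1 of 9 tested transporters was called lower in sh2 versus NT (1.67% of all 17165 genes called) and 7 were under an unadjusted p of 0.05. With sh5 there were 0 calls (0.478% of all genes) and 1 gene at an unadjusted p under 0.05, and between the hairpins 0 calls (0.577% of all genes) and 3 genes. In RCH 0 of 9 were called with sh2 (1.37% of all 17468 genes), 0 with sh5 (0.0229% of all genes) and 0 between hairpins (0% of all genes called), with 4, 2 and 2 at an unadjusted p under 0.05. In SEM 2 were called higher and 3 lower of 8 tested with sh2 (27.9% of all 17042 genes called), 2 higher and 4 lower with sh5 (21.3% of all genes), and 1 lower in sh2 than in sh5 (12.4% of all genes). Of all genes tested, the median log2 fold change was 0.01 in SEM with sh2 and -0.01 with sh5, against -0.08 and -0.10 for the transporters tested. A gene entered each edgeR fit if it had enough reads in as many libraries as an arm holds, whatever their arm. A transporter could thus enter through its high arm alone. Not tested were ABCB1 in Reh, 697, RS411 and RCH, ABCB4 in Reh, and ABCG2 and ABCG1 in SEM.

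**Figure D2:**
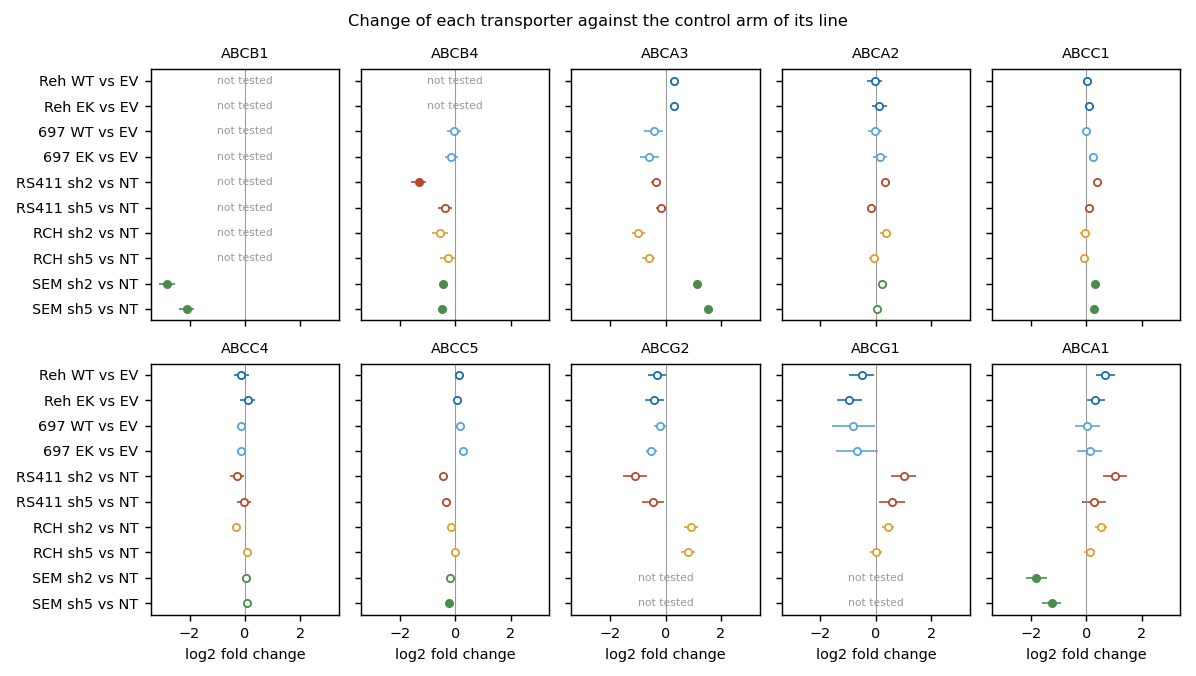
Each panel is a transporter and each row a comparison with the control arm of the same line, with the log2 fold change on the horizontal axis and bars for its standard error. Filled points passed an adjusted p of 0.05: ABCB4 with sh2 in RS411, and ABCB1, ABCB4, ABCA3, ABCC1, ABCC5 (sh5 alone) and ABCA1 in SEM.

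ABCB1 encodes P-glycoprotein, the exporter of vinca alkaloids and anthracyclines, and its transcript fell in SEM with both hairpins. SEM NT libraries held 100, 84 and 73 ABCB1 reads (2.88, 2.32 and 1.96 CPM). The sh2 libraries held 14, 15 and 7 reads (0.355, 0.461 and 0.185 CPM), and the sh5 libraries 21, 18 and 23 reads (0.558, 0.477 and 0.607 CPM). Every hairpin library was below every NT library. The log2 fold change was -2.82 ± 0.29 (SE) with sh2 (7.07-fold lower, adjusted p = 3.22e-06, edgeR) and -2.10 ± 0.27 with sh5 (4.30-fold lower, adjusted p = 4.9e-05). The hairpins did not differ by the test (-0.72 ± 0.34, adjusted p = 0.224).

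ABCB1 lies on the minus strand of chromosome 7, and in the GENCODE v29 annotation of GRCh38 it overlaps RUNDC3B, a gene of the opposite strand. The sources used here do not give whether the authors' counting used strand, so reads of the overlap may have been given to either gene. RUNDC3B fell in the same SEM libraries, from 100, 124 and 174 reads in NT to 13, 7 and 5 in sh2 and 19, 18 and 31 in sh5. Its log2 fold change was -3.97 ± 0.32 with sh2 (adjusted p = 2.3e-07) and, for sh5, -2.59 ± 0.28 (adjusted p = 8.54e-06). In RS411 the 3 NT libraries held 748, 621 and 646 RUNDC3B reads and 1, 0 and 0 ABCB1 reads, so in that line RUNDC3B was counted with almost no reads going to ABCB1.

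ABCB1 shares coding sequence with its neighbour ABCB4, and the sequences around the longest shared run are printed to show where 54-base reads cannot tell the genes apart. Of 3790 54-base words of the ABCB1 coding sequence and 3808 of that of ABCB4, 107 are shared, and no other pair among the 10 transporters shares such a word. The longest identical run is 122 bases. That run is too short to hold all 107 words, so the genes also share sequence outside the window printed here. The window around it covers coding bases 3610 to 3761 of ABCB1 and 3628 to 3779 of ABCB4 (GENCODE v29, 5′ to 3′), with the 2 differing bases in capitals:
ABCB1: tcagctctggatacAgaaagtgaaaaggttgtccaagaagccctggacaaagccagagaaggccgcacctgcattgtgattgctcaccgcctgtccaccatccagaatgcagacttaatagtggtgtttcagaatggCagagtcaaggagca
ABCB4: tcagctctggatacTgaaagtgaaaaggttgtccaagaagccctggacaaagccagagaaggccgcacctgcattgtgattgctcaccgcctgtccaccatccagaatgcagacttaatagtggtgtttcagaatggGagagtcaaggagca
A read that lies inside the identical run has no unique origin, and the sources used here do not give how the authors' counting treated it. In RS411 NT libraries ABCB4 held 707, 748 and 378 reads beside 1, 0 and 0 for ABCB1, so few reads of ABCB4 were counted as ABCB1 there.

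The RefSeq promoter table (GRCh38.p14) holds starts for 7 of the 10 transporters, and the 250 bases before the start are printed for the genes with the largest changes in SEM. They were searched on both strands for 4 motifs that do not contain each other. Over 35116 promoters of that length, CCAAT was in 32.0% of windows, GGGCGG was in 42.6% of them, TATAAA was found in 10.7% and CACGTG, its own reverse complement, in 6.35%. ABCB1 has 2 starts in the table. The upstream one (chr7:87713296-87713545, minus strand) holds none of the 4 motifs, and the other (chr7:87600885-87601134, minus strand) holds CCAAT 238 and, on the reverse strand, 79 bases before the start, shown in capitals:
ABCB1 second start: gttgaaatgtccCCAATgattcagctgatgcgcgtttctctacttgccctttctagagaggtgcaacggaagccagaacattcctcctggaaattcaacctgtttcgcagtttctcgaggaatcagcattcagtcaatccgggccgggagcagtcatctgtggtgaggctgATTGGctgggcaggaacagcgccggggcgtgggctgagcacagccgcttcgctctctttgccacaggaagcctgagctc
Which start was in use was not tested, because the tables hold 1 value per gene.

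Outside SEM, ABCB1 rested on 0 to 11 reads per library. In Reh the EV libraries held 7 and 8 reads, the WT libraries 0 and 0, and the EK libraries 1 and 0. Taking the 3 reads that a count of 0 allows for the WT arm, EV was 4.66-fold higher than WT over both libraries. That value takes the EV reads as exact and is not a lower bound. The ratio of EV to EK was 14.4 with a counting interval (95%, exact) of 2.21 to 606. The interval covers counting error alone, and ABCB1 did not pass the filter on low counts in Reh. With no such filter edgeR gave an adjusted p of 0.0458 for WT versus EV and 0.221 for EK versus EV. In 697 the 3 arms overlapped, with 4 to 10 reads per library in EV, 7 to 9 in WT and 3 to 7 in EK. In RS411 sh5, 11 of the 12 ABCB1 reads came from a single library.

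**Figure D3:**
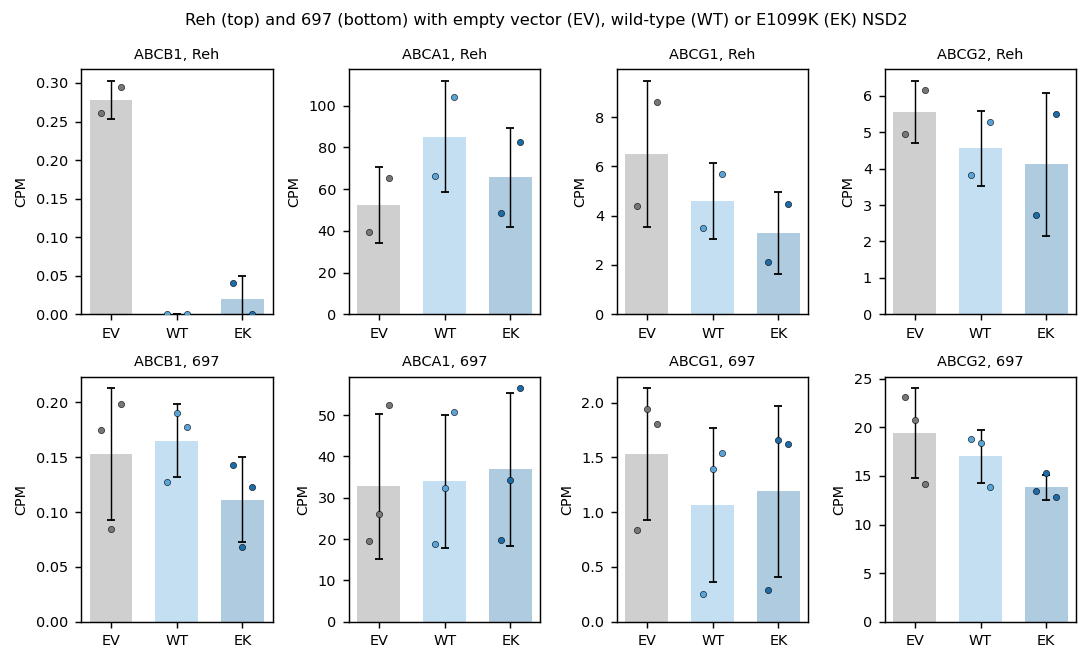
Points are libraries of Reh (top) and 697 (bottom), bars are arm means and lines are SD, in CPM on axes that start at 0. ABCB1 is at 0.261 and 0.295 CPM in Reh EV and at 0 or 0.0407 CPM in the 4 libraries with added NSD2, whereas the arms overlap for each of the 4 genes in 697.

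ABCB4, which moves phosphatidylcholine to the outer membrane leaflet and is best known from bile formation in liver, was at 21.5 ± 6.6 CPM in RCH (SD, n = 3), 17.1 ± 3.7 in RS411, 14.1 ± 2.3 in SEM and 6.70 ± 2.0 in 697 control libraries. The ranges of RCH and RS411 overlapped, as did those of RS411 and SEM, and Reh held 0 reads in 4 of 6 libraries and 1 in each EK library. In RS411 it fell with sh2: the NT libraries were at 16.8, 21.1 and 13.6 CPM and the sh2 libraries at 5.69, 4.54 and 9.78 CPM, with no overlap. The log2 fold change was -1.33 ± 0.26 (2.51-fold lower, adjusted p = 0.0401, edgeR). The call depends on single libraries and on the fit. Leaving out NT replicate 1, 2 or 3 gave an adjusted p of 0.125, 0.134 or 0.068, leaving out sh2 replicate 1 or 2 gave 0.186 or 0.102, and with the replicate number as a block or with the NT and sh2 arms alone the adjusted p was 0.0769 or 0.103. Without sh2 replicate 3, the library with the highest NSD2 of its arm, the change was -1.71 (adjusted p = 9.46e-05).

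With sh5 the RS411 libraries were at 13.4, 13.8 and 12 CPM (-0.37 ± 0.25, adjusted p = 0.635). In SEM, ABCB4 was at 14.1, 16.3 and 11.8 CPM in NT, 10.7, 9.23 and 10.6 in sh2 and 11.5, 9.50 and 9.05 in sh5, so that all 6 hairpin libraries were below all NT libraries. It fell with both hairpins: the log2 fold change was -0.45 ± 0.12 with sh2 (1.36-fold lower, adjusted p = 0.0128) and -0.48 ± 0.12 with sh5 (1.39-fold lower, adjusted p = 0.011). Leaving out SEM NT replicate 2 ended both calls (adjusted p = 0.0738 and 0.0645), as did leaving out sh2 replicate 2 (0.0596) and sh5 replicate 2 or 3 (0.0522 and 0.0567). RCH gave -0.56 ± 0.29 with sh2 (adjusted p = 0.323) and overlapping arms. In a joint fit of the hairpin lines ABCB4 was called lower in the mean sh2 response (-0.77 ± 0.17, adjusted p = 0.00526), and the test of a difference between lines gave an adjusted p of 0.30, or 0.0191 without a filter on low counts.

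That joint fit called 2 of 10 transporters higher and 2 lower in the mean sh2 response (14.9% of 19573 genes called) and 0 in the mean sh5 response (5.66% of 19554 genes, with 3 transporters at an unadjusted p under 0.05). On the log2 scale ABCA2 rose by 0.30 ± 0.08 (adjusted p = 0.012), ABCC1 rose by 0.23 ± 0.06 (adjusted p = 0.023) and ABCC5 fell by 0.26 ± 0.07 (adjusted p = 0.0204). The test of a difference between RS411, RCH and SEM was called for the sh2 response of 4 of the 10 transporters, namely ABCB1, ABCA3, ABCG2 and ABCA1 (8.37% of all genes called), and for the sh5 response of 2, ABCA3 and ABCG2 (2.17% of all genes). ABCB1 entered that fit through SEM and did not pass the filters of RS411 and RCH, where its NT and sh2 libraries held 0 to 6 reads, so its call shows nothing of the response in those lines. ABCG2 likewise did not pass the filter of SEM. Between Reh and 697 the response to EK differed for 0 transporters (0.132% of all genes called; at an unadjusted p under 0.05 ABCB1 and ABCA3), and that to WT for 0 (0.223% of all genes; unadjusted ABCB1).

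ABCA3, the lipid pump of lamellar bodies in lung and of lysosome-like vesicles, had the clearest difference between lines. Its control level was 46.7 ± 5.6 CPM in Reh (SD, n = 2), 18.0 ± 2.2 in RCH (n = 3), 3.69 ± 0.53 in SEM, 3.68 ± 0.46 in RS411 and 0.549 ± 0.11 in 697, and of neighbours in that order SEM and RS411 alone overlapped. In SEM it rose from 3.08, 4.03 and 3.97 CPM in NT to 7.75, 7.81 and 8.51 with sh2 and 10.1, 10.3 and 11.6 with sh5. All 6 hairpin libraries lay above all NT libraries, and all sh5 libraries above all sh2 libraries. The log2 fold change was 1.14 ± 0.12 with sh2 (2.20-fold, adjusted p = 4.54e-06) and 1.55 ± 0.12 with sh5 (2.92-fold, adjusted p = 4.28e-07). ABCA3 was lower in sh2 than in sh5 (-0.41 ± 0.12, adjusted p = 0.0303), a call that was lost in 5 of 13 alternatives, each leaving out an sh2 or sh5 library (without sh2 replicate 1, 2 or 3 at 0.0984, 0.098 or 0.06, and without sh5 replicate 2 or 3 at 0.0704 or 0.138).

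In RCH the ABCA3 values lay in the other direction: 19.0, 15.4 and 19.5 CPM in NT, 6.13, 9.24 and 12.9 in sh2 and 14, 10.1 and 12.1 in sh5. The hairpin libraries were below the NT libraries in 6 of 6 cases, but the change did not pass the test (-0.99 ± 0.23 with sh2, adjusted p = 0.0688, and, for sh5, -0.61 ± 0.23, adjusted p = 1). DESeq2 gave an adjusted p of 0.0047 for sh2, and of the libraries left out in turn sh2 replicate 3 alone gave a call (-1.26, adjusted p = 0.0201). RS411 gave -0.36 ± 0.18 with sh2 (adjusted p = 0.313). The difference between lines was called for sh2 (log2 fold changes of -0.36 in RS411, -0.95 in RCH and 1.13 in SEM, adjusted p = 0.000471) and for sh5 (-0.15, -0.60 and 1.54, adjusted p = 4.15e-05), and it held in all 21 alternatives of each. The 250 bases before the ABCA3 start (chr16:2340729-2340978, minus strand) hold GGGCGG 69 bases before the start, in capitals, and none of the other 3 motifs:
ABCA3: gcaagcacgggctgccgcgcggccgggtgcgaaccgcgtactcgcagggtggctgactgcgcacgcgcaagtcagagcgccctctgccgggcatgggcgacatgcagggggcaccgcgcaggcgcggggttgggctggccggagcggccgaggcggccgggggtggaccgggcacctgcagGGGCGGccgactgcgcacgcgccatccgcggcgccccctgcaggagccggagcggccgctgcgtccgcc

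**Figure D4:**
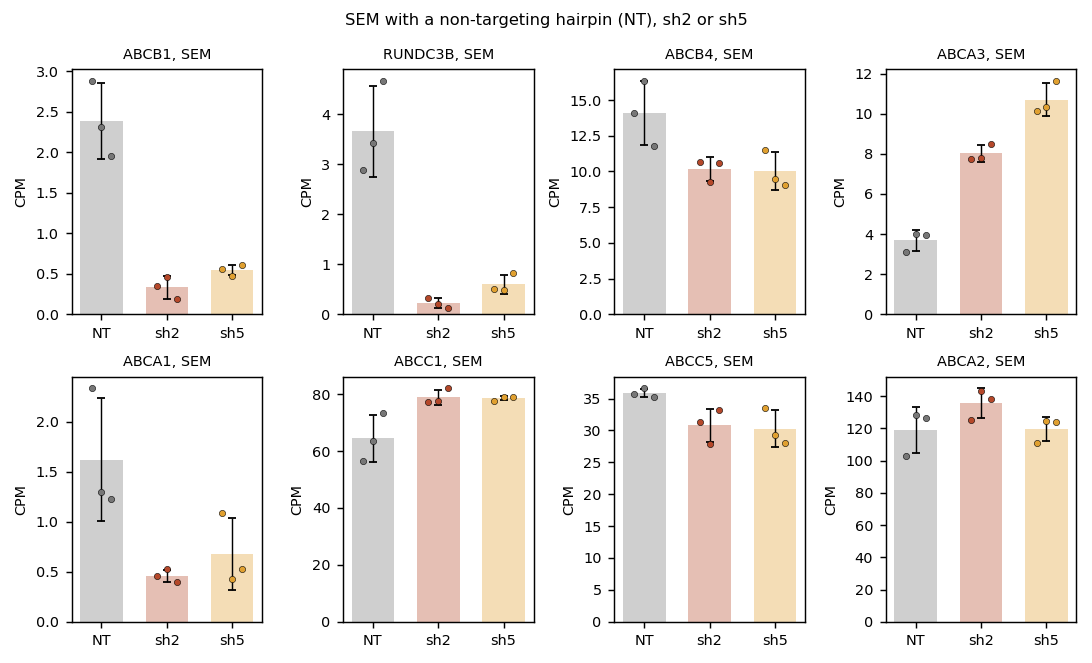
Points are SEM libraries, bars are arm means and lines are SD (n = 3), in CPM on axes that start at 0. ABCB1 and RUNDC3B fall below 1 CPM in every hairpin library, ABCB4 and ABCA1 are lower, ABCA3 is higher, and ABCC1, ABCC5 and ABCA2 move little.

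ABCA2, a lipid transporter of endosomes and lysosomes, was highest in SEM (119 ± 14 CPM, n = 3) and ran from 44.4 ± 8.8 CPM in 697 (n = 3) over 55.5 ± 5.1 in RCH and 59.6 ± 8.9 in Reh (n = 2) to 69.0 ± 10 in RS411. Only SEM stood clear of its neighbour in that order. In RS411 the NT libraries were at 72.4, 76.9 and 57.7 CPM and the sh2 libraries at 91.6, 95.3 and 67.4, with overlap (0.32 ± 0.12, adjusted p = 0.192). With the replicate number as a block ABCA2 was called in RS411 with sh2 (adjusted p = 0.00895) and against sh5 (0.000743), and in SEM with sh2 (0.21 ± 0.08 and adjusted p = 0.0654 without the block, 0.00063 with it) and against sh5 (0.0038). ABCA2 overlaps C9orf139 on the opposite strand, which rose in SEM from 3.43 to 5.01 CPM in NT to 6.03 to 8.12 CPM with sh2 (0.72 ± 0.15, adjusted p = 0.00232). With sh5 in SEM, C9orf139 was at 6.17 to 6.99 CPM, while ABCA2 was at 120 ± 7.4 CPM there. In RS411, C9orf139 was at 1.22 to 2.46 CPM in NT, 2.20 to 5.15 in sh2 and 1.22 to 1.59 in sh5.

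ABCC1, ABCC4 and ABCC5 are the multidrug resistance proteins MRP1, MRP4 and MRP5. ABCC1 exports glutathione conjugates and anthracyclines, ABCC4 exports cyclic nucleotides and thiopurine nucleotides, and ABCC5 exports nucleotide analogues. ABCC1 was at 88.2 ± 16 CPM in 697, 76.6 ± 12 in RCH, 64.5 ± 8.3 in SEM, 48.1 ± 5.9 in Reh and 47.4 ± 5.7 in RS411, and a gap between neighbours was seen between SEM and Reh alone. It rose in SEM, from 56.7, 63.6 and 73.3 CPM in NT to 77.3, 77.7 and 82.0 with sh2 and 77.7, 78.9 and 79.1 with sh5, without overlap. The changes were small: 0.31 ± 0.08 with sh2 (1.24-fold, adjusted p = 0.00541) and 0.30 ± 0.08 with sh5 (1.23-fold, adjusted p = 0.0101).

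In RS411 all 3 sh2 libraries (65.9, 63.3 and 54.1 CPM) lay above all 3 NT libraries (53.9, 44.6 and 43.7 CPM), with 0.39 ± 0.10 and an adjusted p of 0.0741. ABCC1 passed in RS411 with a replicate block (adjusted p = 0.000551 with sh2 and 0.00481 for sh2 against sh5) and without sh2 replicate 3 (0.0146). RCH gave -0.05 ± 0.16 with sh2. Its rise in the mean sh2 response was lost in 6 of 21 alternatives, each leaving out a library: RS411 NT replicate 2 or 3 (0.0526 or 0.0523), RS411 sh2 replicate 1 (0.0617), SEM NT replicate 1 or 2 (0.0537 or 0.0506) and SEM sh2 replicate 3 (0.0513).

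ABCC4 differed more between lines than within them. It was at 89.4 ± 6.4 CPM in 697, 74.8 ± 6.8 in RCH, 50.1 ± 9.6 in RS411, 42.8 ± 2.0 in SEM and 19.6 ± 0.87 in Reh, and of neighbours RS411 and SEM overlapped. None of the 10 comparisons with a control called ABCC4 in the edgeR or limma fits without a block. In SEM its values were 41.0, 42.4 and 44.9 CPM in NT, 42.2, 43.7 and 44.3 in sh2 and 46.0, 46.2 and 43.3 in sh5, and the log2 fold change was 0.04 ± 0.06 with sh2. In RCH it was at 70.2, 71.5 and 82.6 CPM in NT and 55.9, 66.0 and 65.6 in sh2 (-0.31 ± 0.14, adjusted p = 0.264). With the replicate block it was called in RS411 with sh2 (-0.30, adjusted p = 0.0343).

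ABCC5 was highest in Reh (63.1 ± 2.8 CPM) and 697 (57.0 ± 13), which overlapped, and lower in SEM (35.8 ± 0.67), RS411 (35.7 ± 3.6) and RCH (29.1 ± 4.1), where RS411 overlapped both others. It fell in SEM with sh5, from 35.7, 36.6 and 35.3 CPM to 33.5, 29.3 and 28 (-0.23 ± 0.08, 1.17-fold lower, adjusted p = 0.0444). That call was lost in 8 of 13 alternatives, among them DESeq2 (0.0521), no filter on low counts (0.0657), the 2 arms alone (0.0553), and leaving out NT replicate 1, 2 or 3 (0.0818, 0.0981 or 0.0824) or sh5 replicate 2 or 3 (0.147 or 0.186). With sh2 the SEM libraries were at 31.3, 27.9 and 33.1 CPM (-0.20 ± 0.08, adjusted p = 0.0707, and 0.0203 with the replicate block).

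In RS411, ABCC5 was at 39.8, 34.0 and 33.2 CPM in NT, 27.9, 22.2 and 26.2 in sh2 and 29.2, 25.8 and 27.9 in sh5, so all hairpin libraries were lower. The log2 fold change was -0.46 ± 0.10 with sh2 (adjusted p = 0.0519) and, for sh5, -0.35 ± 0.10 (adjusted p = 0.219). With the replicate block both passed (adjusted p = 0.000609 and 0.00673). Its fall in the mean sh2 response was lost without RS411 NT replicate 1 (adjusted p = 0.0554).

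ABCG2, the breast cancer resistance protein, exports mitoxantrone and methotrexate, and its control level spanned the lines in the order 697 (19.4 ± 4.6 CPM), Reh (5.56 ± 0.85), RCH (3.30 ± 0.48), SEM (0.331 ± 0.091) and RS411 (0.293 ± 0.096). Only SEM and RS411 overlapped. In RCH all hairpin libraries were above all NT libraries: 2.78, 3.73 and 3.39 CPM in NT, 5.03, 7.05 and 7.45 in sh2 and 6.09, 4.44 and 7.25 in sh5. The change did not pass the test (0.93 ± 0.25 with sh2, adjusted p = 0.0987, and, for sh5, 0.82 ± 0.25, adjusted p = 0.777), whereas DESeq2 gave an adjusted p of 0.0133 for sh2. SEM held 11, 9 and 16 reads in NT, 5, 5 and 2 in sh2 and 5, 7 and 5 in sh5, and RS411 held 17, 8 and 7 reads in NT and 8, 4 and 7 in sh2.

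The sh2 response of ABCG2 differed between lines in the joint fit (log2 fold changes of -1.10 in RS411, 0.97 in RCH and -1.56 in SEM, adjusted p = 0.00198), where RS411 and SEM rest on 2 to 17 reads per library and SEM alone could not be tested. The difference was called in all 21 alternatives, but the values of those 2 lines are of low depth. For sh5 (-0.44, 0.83 and -1.12, adjusted p = 0.0344) the call was lost in 13 of 21 alternatives. Each left out a library: NT replicate 1 or 3 of any line, sh5 replicate 1 or 2 of RS411, 1 or 3 of RCH, or any of SEM, with adjusted p-values of 0.0511 to 0.108. In 697, EK libraries were at 13.5, 15.3 and 12.8 CPM against 23.2, 20.7 and 14.2 in EV (-0.51 ± 0.21, adjusted p = 0.986, limma), with overlap.

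**Figure D5:**
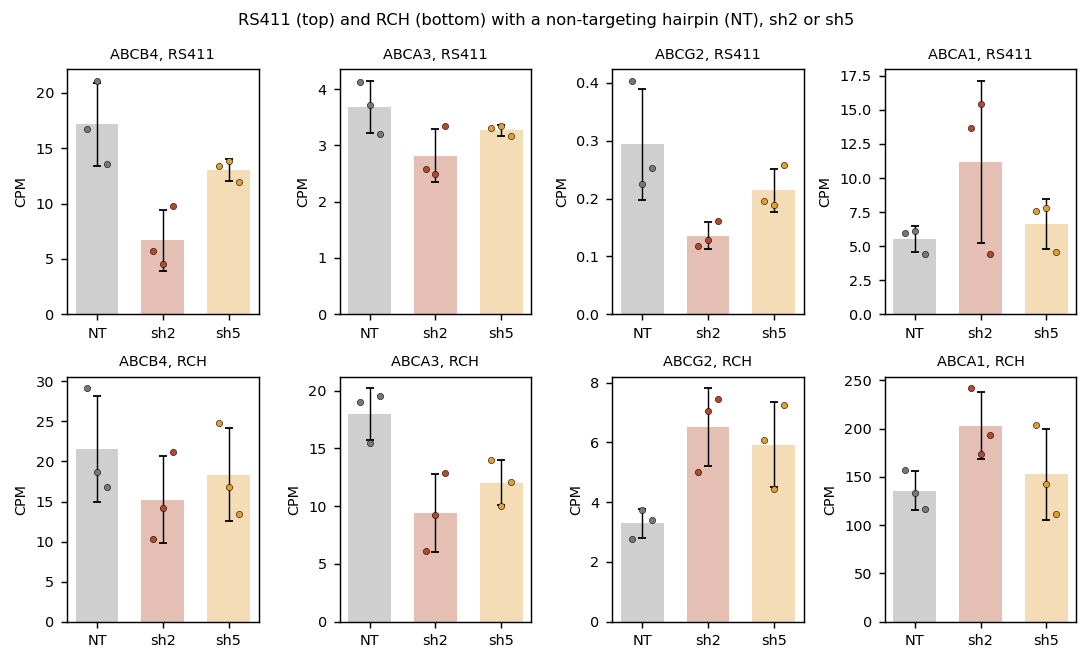
Points are libraries of RS411 (top) and RCH (bottom), bars are arm means and lines are SD (n = 3), in CPM on axes that start at 0. ABCB4 in RS411 is lower in all sh2 libraries, ABCA3 in RCH is lower and ABCG2 in RCH higher in all hairpin libraries, and the third ABCA1 point of RS411 sh2 lies at 4.39 CPM, apart from the other 2.

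ABCA1 and ABCG1, the cholesterol exporters that load lipid-poor apolipoprotein and high-density lipoprotein, were both highest in RCH and lowest in SEM. ABCA1 was at 136 ± 20 CPM in RCH, 52.6 ± 18 in Reh, 32.8 ± 17 in 697, 5.51 ± 0.94 in RS411 and 1.62 ± 0.62 in SEM, and of neighbours Reh and 697 overlapped. ABCG1 followed the order RCH (58.2 ± 12 CPM), Reh (6.49 ± 3.0), 697 (1.53 ± 0.60), RS411 (0.536 ± 0.22) and SEM (0.181 ± 0.16), and RS411 and SEM overlapped. In SEM, where the level was lowest, ABCA1 fell: NT libraries held 81, 47 and 46 reads (2.33, 1.30 and 1.23 CPM), sh2 libraries 18, 17 and 15 (0.456, 0.523 and 0.396 CPM) and sh5 libraries 41, 16 and 20 (1.09, 0.424 and 0.528 CPM). All 6 hairpin libraries were below all NT libraries.

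The log2 fold change of ABCA1 in SEM was -1.80 ± 0.37 with sh2 (3.48-fold lower, adjusted p = 0.0017) and -1.24 ± 0.34 with sh5 (2.36-fold lower, adjusted p = 0.0179). The sh5 call was lost without NT replicate 1 (adjusted p = 0.0832), sh5 replicate 2 (0.0876) or sh5 replicate 3 (0.0755). In RS411 the values lay in the other direction in 2 of 3 sh2 libraries: NT at 5.97, 6.14 and 4.43 CPM, sh2 at 13.7, 15.5 and 4.39 (1.03 ± 0.42, adjusted p = 0.244). Without sh2 replicate 3 the change was 1.42 (adjusted p = 0.00158), and with the replicate block 0.94 (adjusted p = 0.0362). In RCH the NT libraries were at 157, 134 and 117 CPM and the sh2 libraries at 242, 174 and 194, without overlap (0.53 ± 0.21, adjusted p = 0.216).

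The difference of the ABCA1 sh2 response between lines (1.03 in RS411, 0.56 in RCH and -1.80 in SEM) had an adjusted p of 0.0385 and was lost in 15 of 21 alternatives. Each left out a library: any NT library of RS411 or SEM, RCH NT replicate 2 or 3, RS411 sh2 replicate 1 or 2, RCH sh2 replicate 1 or 3, or any SEM sh2 library, with adjusted p-values of 0.0504 to 0.103. The 250 bases before the ABCA1 start (chr9:104928156-104928405, minus strand) hold GGGCGG at 189, 163 and 97, CACGTG at 147 and TATAAA at 31 bases before the start, in capitals:
ABCA1: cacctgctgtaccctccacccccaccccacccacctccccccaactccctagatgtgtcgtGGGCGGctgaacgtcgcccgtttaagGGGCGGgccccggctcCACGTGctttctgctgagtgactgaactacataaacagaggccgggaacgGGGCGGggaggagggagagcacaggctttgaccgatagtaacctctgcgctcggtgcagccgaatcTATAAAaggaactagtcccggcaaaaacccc
In Reh, ABCA1 was at 39.7 and 65.5 CPM in EV, 66.3 and 104 in WT and 48.7 and 82.4 in EK. Both WT libraries lay above both EV libraries, and the EK arm overlapped both (0.68 ± 0.34 for WT, adjusted p = 1). ABCG1 in Reh was at 4.39 and 8.59 CPM in EV, 3.50 and 5.70 in WT and 2.12 and 4.48 in EK (-0.96 ± 0.46 for EK, adjusted p = 0.941). Without a filter on low counts the EK change of ABCG1 was -0.95 with an adjusted p of 0.0484. These Reh fits of ABCA1 and ABCG1 held no replicate block, and the calls with a block are given in the last section.

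In the filtered edgeR and limma fits without a block, ABCG1 was called in no comparison with a control. In RCH, its highest line, NT libraries were at 64.5, 66.0 and 44.0 CPM and sh2 libraries at 90.4, 78.9 and 73.4, without overlap (0.43 ± 0.22, adjusted p = 0.314). In RS411 it was at 0.616, 0.704 and 0.288 CPM in NT and 1.20, 1.63 and 0.462 in sh2, with overlap (1.01 ± 0.45, adjusted p = 0.266, 0.0308 with the replicate block, and 0.0378 without sh2 replicate 3). In SEM it held 1 to 13 reads per library and was not tested.

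With the replicate block, 6 transporters were called in RS411 with sh2 in place of 1: ABCA2, ABCC1, ABCC4, ABCC5, ABCG1 and ABCA1, while ABCB4 was not. The block called 1 with sh5 and 2 between the hairpins in RS411 in place of 0, and 2 between the hairpins in SEM in place of 1. In SEM with sh2 versus NT it added ABCA2 and ABCC5.

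Summed levels of some marker lists lay apart from NT, with both hairpins in SEM and with sh2 alone in RS411 and RCH, and some lay apart from EV in Reh. These sums were not tested. The summed level of 8 myeloid markers in SEM was 14.5 to 21.6 CPM in NT, 34.9 to 49.99 in sh2 and 44.1 to 56.7 in sh5. LYZ, CSF1R and ITGAM reached 1 CPM in SEM, FCGR3A was at 0, and CD14, MPO, S100A8 and S100A9 stayed below 1 CPM. Of 8 stromal and epithelial markers, COL1A1, COL1A2 and PDGFRB reached 1 CPM, and the sum was 101 to 129 CPM in NT, 153 to 162 in sh2 and 142 to 164 in sh5. In RS411 the sum of 8 erythroid and megakaryocytic markers, of which ITGA2B alone reached 1 CPM and PF4 was among those at 0, was 24.4 to 26.4 CPM in NT, 4.83 to 10.4 in sh2 and 25.5 to 32.8 in sh5. Of 8 markers of T and NK cells, NKG7 alone reached 1 CPM in each line. In SEM the summed B-lymphoblast markers were at 1437 to 1552 CPM in NT, 1268 to 1313 in sh2 and 1274 to 1304 in sh5. The T and NK sum in SEM was 17.0 to 22.9 CPM in NT, 12.2 to 15.7 in sh2 and 16.0 to 21.6 in sh5, and the erythroid and megakaryocytic sum was 2.79 to 4.14, 2.13 to 2.77 and 1.83 to 2.48 CPM. In RCH the myeloid sum was 18.9 to 25.7 CPM in NT, 11.96 to 17.8 in sh2 and 18.03 to 27.5 in sh5. The part of these shifts in the transporter results was not tested.

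Counts over other genes of the same pathways are read against the share of all genes called in SEM, 27.9% with sh2 and 21.3% with sh5. Of 38 other ABC transporters, 19 were tested in SEM, and 6 rose and 4 fell with sh2, while 5 rose and 3 fell with sh5. On the log2 scale TAP1, the peptide pump of antigen presentation, rose by 1.01 ± 0.06 with sh2 (adjusted p = 5.48e-09) and 0.84 ± 0.06 with sh5 (1.21e-07). ABCA5 fell by 2.22 ± 0.16 with sh2 (5.12e-08) and 1.83 ± 0.15 with sh5 (7.28e-07). ABCD2, a peroxisomal transporter of very long-chain fatty acids, fell by 2.09 ± 0.19 with sh2 (6.95e-07), and ABCB8, a mitochondrial transporter, rose by 0.68 ± 0.09 with sh5 (3.94e-05). ABCD2 was also called lower with sh5 (-0.88 ± 0.17, 0.00182), and ABCB8 was also called higher with sh2 (0.64 ± 0.09, 4.19e-05). In Reh, ABCD2 rose with WT (3.18 ± 0.38, adjusted p = 0.0444) and was the single call among 22 tested. TAP1 rose in RS411 with sh2 (0.39 ± 0.08, adjusted p = 0.0379). ABCA7 rose in RCH with sh2 (1.34 ± 0.24, adjusted p = 0.0267) and fell in SEM with sh2 (-0.41 ± 0.09, adjusted p = 0.00314).

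Of 21 tested regulators of ABC transporter genes, 5 rose and 3 fell in SEM with sh2, and 4 rose and 0 fell with sh5, beside the same 27.9% and 21.3% of all genes. With sh2 NR1H3, which encodes the LXR-alpha receptor, rose by 0.63 ± 0.10 (adjusted p = 0.000311), FOXO1 fell by 1.08 ± 0.19 (0.000497) and HIF1A fell by 0.27 ± 0.05 (0.00166). With sh5 NR1H2, which encodes LXR-beta, rose by 0.36 ± 0.06 (0.000675), RXRA, the LXR partner, rose by 1.42 ± 0.23 (0.00311) and AHR rose by 0.48 ± 0.10 (0.00371). NR1H2 and RXRA were also called higher with sh2 (0.29 ± 0.06, 0.00256, and 1.30 ± 0.23, 0.00351). AHR was not called with sh2, and NR1H3, FOXO1 and HIF1A were not called with sh5. Of 14 tested LXR target genes and partners of sterol efflux, 2 rose and 5 fell with sh2, and 1 rose and 5 fell with sh5. PLTP, the phospholipid transfer protein, rose by 1.33 ± 0.08 with sh2 (6.46e-09) and 0.63 ± 0.08 with sh5 (3.29e-05). SCD fell by 0.69 ± 0.06 (8.86e-07) and SMPDL3A fell by 1.59 ± 0.24 (0.000137) with sh2, and SOAT1 fell by 0.41 ± 0.06 (0.000141) and SREBF1 fell by 0.39 ± 0.06 (0.000317) with sh5. SCD and SMPDL3A were also called lower with sh5 (-0.39 ± 0.06, 0.000435, and -0.84 ± 0.23, 0.0147). SOAT1 and SREBF1 were also called lower with sh2 (-0.18 ± 0.06, 0.0313, and -0.30 ± 0.06, 0.00197).

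Of 11 tested drug uptake carriers, 3 rose and 2 fell in SEM with sh2, and 5 rose and 0 fell with sh5, against 27.9% and 21.3% of all genes. SLC19A1, the reduced folate carrier that brings methotrexate into cells, rose by 0.48 ± 0.07 with sh2 (adjusted p = 5.02e-05) and 0.49 ± 0.07 with sh5 (7.56e-05). SLC22A16 fell with sh2 (-0.81 ± 0.12, 9.69e-05) and rose with sh5 (0.66 ± 0.11, 0.000599). SLC29A1, a nucleoside carrier, rose by 0.44 ± 0.07 with sh2 (0.000215) and 0.26 ± 0.07 with sh5 (0.0172). SLC22A4 rose by 1.91 ± 0.43 with sh5 (0.00506) and was not called with sh2. Of 15 tested genes of glutathione synthesis and conjugation, 3 rose and 2 fell with sh2 and 4 rose and 2 fell with sh5, again beside 27.9% and 21.3% of all genes. GPX1, a glutathione peroxidase, rose by 0.41 ± 0.07 with sh2 (0.000266) and 0.59 ± 0.07 with sh5 (1.5e-05). With sh2 GCLC, the catalytic subunit of the first step of synthesis, fell by 0.39 ± 0.08 (0.0012) and GPX4 rose by 0.20 ± 0.06 (0.0156), and with sh5 GSR fell by 0.26 ± 0.06 (0.005) and GSS rose by 0.28 ± 0.06 (0.00547). GCLC was also called lower with sh5 (-0.30 ± 0.08, 0.011) and GPX4 higher (0.24 ± 0.06, 0.00776). GSR and GSS were not called with sh2. Outside SEM, GPX1 rose in RS411 with sh2 (0.40 ± 0.08, adjusted p = 0.029). Apart from it and the ABC transporters named above these 5 lists held 0 called genes in the comparisons of Reh, 697, RS411 and RCH with their controls, where at most 1.67% of all genes were called.

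The genes with the closest pattern to each transporter were sought over the 15 line and arm means of log2(CPM + 1), among 10980 genes with a mean of at least 5 CPM. The highest Pearson correlations were 0.992 for ABCA3 with PRKCB, 0.990 for ABCC4 with RORB, 0.988 for ABCG1 with PRX, 0.985 for ABCA1 with HPS4, 0.984 for ABCG2 with C4orf32 and 0.981 for ABCB4 with RPS9. ABCB1 had the lowest maximum, 0.822 with PLOD2. The means fall into 5 lines of 3 arms that share a cell line, so these values describe differences between lines.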

How the data were processed

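Reads were trimmed, aligned to hg19 and counted per gene with Trimmomatic, STAR and featureCounts (versions not given), per the submitters' processing notes. The authors deposited raw read counts for Reh, RS411, RCH and SEM. For 697 the deposited normalized signal was used, in which 100% of values are whole reads within 0.001 reads after division by 1 factor per library. Both kinds of table come from total RNA libraries read to 54 bases, per the labels' protocols. Rows with a date in place of a gene name (27 in each hairpin line) were removed. A further Reh replicate, given as 6 columns over the raw and normalized values, matched no sample and was not used. Levels are CPM on library totals.

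Counts were tested with edgeR 4.0.16 (R 4.3.3, quasi-likelihood F-tests, TMM, filterByExpr by arm, all arms of a line in 1 fit) and 697 with limma 3.58.1 on log2(value + 1), keeping genes whose mean value was 10 or more. The SE of an edgeR change is its absolute log2 fold change divided by the square root of its F statistic. Benjamini-Hochberg adjustment ran over all genes. Joint edgeR fits tested mean responses and differences between lines. The steps were tested on simulated data. Alternatives used DESeq2 1.42.0, other factors, filters and pseudocounts, a replicate block, 2 arms alone and left-out libraries. Same-numbered libraries deviated together in 697 (correlations of 0.423 to 0.604), RS411 (0.138 to 0.347) and SEM (0.122 to 0.311), which is where the pairing comes from. In Reh these correlations were 0.561 to 0.598, from only 2 libraries per arm.

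The transporters and gene lists were chosen with earlier results of these data known. Named from each list were up to 3 called genes per comparison with a control by smallest adjusted p, and for each transporter the genes of closest pattern. ABCA7 in SEM was added after its values were seen. So were the values under the other hairpin for genes named with a single hairpin in SEM. Overlaps and coding sequences came from GENCODE v29.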

Additional observations from a re-analysis of the deposited data

Results flagged for a closer look

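For 6 results the response of a transporter differed between RS411, RCH and SEM by the interaction test of the joint edgeR fit. With sh2 the adjusted p was 0.000471 for ABCA3, 0.00198 for ABCG2, 0.0122 for ABCB1 and 0.0385 for ABCA1. With sh5 it was 4.15e-05 for ABCA3 and 0.0344 for ABCG2. The ABCA1 call with sh2 was lost in 15 of 21 alternatives, and the ABCG2 call with sh5 in 13 of 21. ABCG2 did not pass the filter of SEM, where its libraries held 2 to 16 reads. ABCB1 held 0 to 6 reads in the NT and sh2 libraries of RS411 and RCH and entered the fit through SEM, so its value shows nothing of those lines. For ABCA3 the SEM change with sh2 is positive and those of RS411 and RCH are negative. In RCH alone it was not called by edgeR as fitted here (adjusted p = 0.0688) and was called by DESeq2 (0.0047), by edgeR without a filter on low counts (0.000488) and without sh2 replicate 3 (0.0201).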

How the results depend on the processing

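No called direction turned under any alternative run. The number of transporters called moved by more than 1.5 times in these cases. Without a filter on low counts it was 1 in both Reh comparisons with EV (ABCB1 for WT, ABCG1 for EK), 4 in RS411 sh2 versus NT (adding ABCA2, ABCC1 and ABCC5), 3 in RS411 sh2 versus sh5 (ABCB4, ABCA2 and ABCC1), 3 in RCH sh2 versus NT (ABCA3, ABCG2 and ABCA1), 4 for the difference between lines with sh5 (adding ABCB1 and ABCA1) and 1 for the mean sh5 response (ABCB4). DESeq2 called 3 in RS411 sh2 versus NT (adding ABCC1 and ABCC5), 2 between the RS411 hairpins (ABCB4 and ABCA2) and 2 in RCH sh2 versus NT (ABCA3 and ABCG2). Upper-quartile factors called 2, and the 2 arms alone called 0, in RS411 sh2 versus NT. The cause was not tested. With a replicate block the counts were 1 in Reh WT versus EV (ABCA1, adjusted p = 3.11e-05), 3 in Reh EK versus EV (ABCA3 at 0.0445, ABCG1 at 0.00197 and ABCA1 at 0.0137), 6, 1 and 2 in RS411 (sh2, sh5 and between hairpins), 3 in RCH sh2 versus NT (ABCA3 at 0.016, ABCG2 at 0.0335 and ABCA1 at 0.0293), 2 between the SEM hairpins, 4 for the difference between lines with sh5, 4 for the mean sh5 response and 1 for the difference between Reh and 697 with WT. It also called ABCC1 for the difference between lines with sh2 (adjusted p = 0.0458) and ABCC4 for the mean sh2 response (0.0164). In SEM sh2 versus NT the block added ABCA2 (0.00063) and ABCC5 (0.0203). In 697 the block changed no call. In RCH the replicate numbers did not pair libraries throughout (lowest correlation -0.0693), and Reh has only 2 pairs, so there the samples share a number. Leaving out each library in turn gave 0 to 6 calls in RS411 sh2 versus NT, 0 to 3 between the RS411 hairpins, 0 to 1 in RCH sh2 versus NT, 5 to 6 in SEM sh2 versus NT, 3 to 6 in SEM sh5 versus NT, 0 to 1 between the SEM hairpins, 3 to 4 and 1 to 3 for the differences between lines with sh2 and sh5, 3 to 5 and 0 to 1 for the mean responses, and 0 elsewhere. The control levels kept 40 pairs at 1 CPM throughout. Depth limits ABCB1 outside SEM, ABCB4 in Reh, and ABCG2 and ABCG1 in SEM and RS411.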
